A study of Mus musculus with 14 samples.

Results

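Myl7, Myl4, Sln, Bmp10 and Gja5, genes that mark the atria of the mouse heart, were followed through 14 bulk RNA-seq libraries of female hearts. They were taken as a list of 5 of the 42396 gene rows in each of the 2 deposited tables, and all 5 were found in both tables. The list serves as a measure of how much atrial RNA a library holds, so that the level of Nppa can be read beside it.

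All mice were described as FS6KD, a gene-trap knockdown of Ndufs6 (Ndufs6 gt/gt) on a mixed C57BL/6J and 129/Ola background. Ndufs6 encodes a subunit of respiratory complex I, and no library of a mouse without the knockdown was used here. The knockout experiment held 4 hearts labelled Atf3+/+FS6KD and 4 labelled Atf3-/-FS6KD at 12 weeks, the latter with a CRISPR-Cas9 deletion of exon 2 to 4 of Atf3, made in FS6KD eggs. The other experiment (AAV) had 3 hearts with the label MyoAAV2-shCtrl and 3 with MyoAAV2-shAtf3, from mice that had received a muscle-directed adeno-associated virus with a control hairpin or a hairpin against Atf3 as neonates. The age of these 6 mice is not given by the labels, and their genotype tags read only control and Atf3 knockdown. The tissue is labelled heart, and the study calls the knockout samples whole heart tissue. The sample columns of the AAV table are named the other way round from the labels, so the groups are called labelled shCtrl and labelled shAtf3, and each direction there holds only as far as the labels do.

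Total counts lay between 30085432 and 40534913 in the AAV experiment and between 33914931 and 134920825 in the knockout experiment, where replicates 3 and 4 of each genotype were the deep ones. Levels are given as raw CPM, the reads of a gene per 1000000 reads of the total count of its library, without further normalization. Atf3 itself lay at 25.4, 6.60, 6.80 and 6.24 CPM in the libraries labelled Atf3+/+FS6KD and at 25.7, 38.7, 23.6 and 14.4 CPM in those labelled Atf3-/-FS6KD. The gene-level count also covers exon sequence outside the deletion, so it does not check the genotype. Atf3 lay at 10.3, 13.4 and 14.2 CPM under the shCtrl label and at 20.8, 12.1 and 16.2 CPM under the shAtf3 label, which goes against the labels. Ndufs6 lay between 2.40 and 3.72 CPM in all 14 libraries. No source states that the hearts of a group came from separate litters, so p-values measure the spread between these libraries.

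The chambers of the heart use different contractile and electrical proteins. Atrial cardiomyocytes make the regulatory light chain Myl7 and the essential light chain Myl4 where ventricular cardiomyocytes make Myl2 and Myl3, and they make sarcolipin (Sln) where ventricular cells rely on phospholamban (Pln) to restrain the calcium pump of the sarcoplasmic reticulum. Bmp10 is a secreted ligand of the TGF-beta family made by atrial, mainly right atrial, cardiomyocytes after birth. Gja5 encodes a gap junction connexin of atrial cardiomyocytes that is also made by the ventricular conduction system and by arterial endothelium. Nppa encodes atrial natriuretic peptide, which healthy adult atria make in abundance and which ventricular cardiomyocytes make again under strain.

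All 5 genes and Nppa were located in GRCm38 with the GENCODE M21 annotation. Myl7 lies on the minus strand of chromosome 11 (5896637 to 5898782, 590 bases of merged exon) and Myl4 on the plus strand of the same chromosome (104550663 to 104595753, 1202 bases). Sln lies on chromosome 9 (53850164 to 53854560, 1318 bases), Bmp10 on chromosome 6 (87428994 to 87437677, 4490 bases) and Gja5 on chromosome 3 (96904693 to 97077416, 5689 bases). Nppa lies on chromosome 4 (148000722 to 148002079, 865 bases) and overlaps the antisense gene Gm13054. Of the windows of read length in the transcripts of Myl7, Myl4, Sln and Bmp10 none occurred in a transcript of another gene on either strand, against 12.66% for Gja5 (shared with Gpr89 and Zfp697) and 43.66% for Nppa (shared with Gm13054). The counts of Gja5 and Nppa are therefore less certain, and Nppa has in addition a second row in both tables, read here as a copy on an alternate locus, which none of the 5 atrial genes has.

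The RefSeq table of GRCm38.p6 held a promoter for 5 of the 6 genes, as the 250 bases before and the 50 bases from the start site on. Sln, the lowest of the 6 at no more than 0.0854 CPM, had no entry. The promoters of 3 genes are shown, which lay at opposite ends of the range among these 5. Nppa lay at 248 to 802 CPM, and Myl7 and Bmp10 at or below 0.395 and 0.270 CPM. They are also the 3 in which the core marked below was found. Capitals mark the core bound by GATA factors, written GATAA or, on the other strand, TTATC.
Nppa (chr4:148000472-148000771, plus strand): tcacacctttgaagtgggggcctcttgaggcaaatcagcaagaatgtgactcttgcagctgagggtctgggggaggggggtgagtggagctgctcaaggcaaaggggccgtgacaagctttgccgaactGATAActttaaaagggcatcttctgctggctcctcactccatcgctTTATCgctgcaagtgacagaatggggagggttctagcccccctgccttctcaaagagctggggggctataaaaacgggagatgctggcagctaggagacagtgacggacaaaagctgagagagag
Myl7 (chr11:5898733-5899032, minus strand): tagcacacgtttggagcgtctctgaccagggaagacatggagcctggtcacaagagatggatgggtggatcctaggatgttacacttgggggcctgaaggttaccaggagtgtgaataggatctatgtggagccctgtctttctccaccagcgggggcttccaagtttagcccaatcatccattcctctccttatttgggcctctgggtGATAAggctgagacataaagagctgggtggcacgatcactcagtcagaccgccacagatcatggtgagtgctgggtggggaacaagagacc
Bmp10 (chr6:87428744-87429043, plus strand): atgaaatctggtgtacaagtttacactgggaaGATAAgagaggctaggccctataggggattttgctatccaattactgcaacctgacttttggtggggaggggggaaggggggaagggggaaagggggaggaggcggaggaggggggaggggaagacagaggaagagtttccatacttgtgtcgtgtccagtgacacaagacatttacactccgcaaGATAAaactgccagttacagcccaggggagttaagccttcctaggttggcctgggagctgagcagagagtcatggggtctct
The core stood at positions -121 and -75 from the start in Nppa, at -41 in Myl7 and at -218 and -32 in Bmp10, and it was not found in the windows of Myl4 and Gja5. It occurred in 25.41% of the 32851 promoters of the table.

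Myl7, Sln and Bmp10 were at or near 0 in every heart, although each gene is a defining marker of the atria. None of the 3 reached 1 CPM in any of the 14 libraries, and they were left out of the fit across all genes by its filter (above 1 CPM in at least 1 library). The 14 libraries held 97 reads of Myl7, 22 of Sln and 117 of Bmp10 among 853003632 reads. Summed in this way the levels were 0.114 CPM for Myl7 (95% exact Poisson interval 0.0922 to 0.139), 0.0258 CPM for Sln (0.0162 to 0.0390) and 0.137 CPM for Bmp10 (0.113 to 0.164), intervals that cover counting error only. Myl4 and Gja5 were detected in every library, at 1.64 to 3.11 CPM and 6.22 to 10.8 CPM. In bulk samples a smaller share of atrial cells and less of these transcripts in each cell cannot be told apart, and whether the samples held atrial tissue was not tested.

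**Figure D1:**
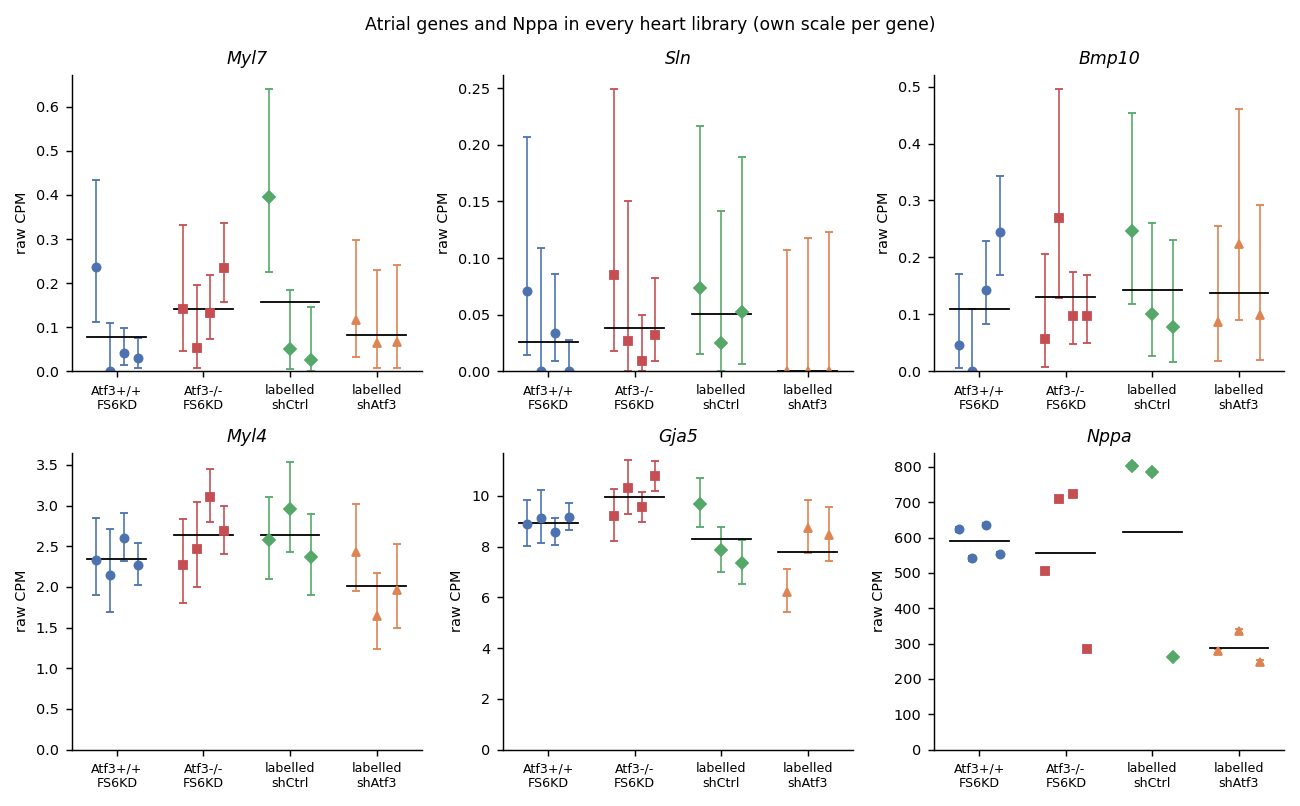
Raw CPM (scaled to the total count of the library) of the 5 atrial genes and of Nppa, 1 point per heart library with its 95% exact Poisson interval, and the group mean as a black line. Myl7, Sln and Bmp10 reach at most 0.395, 0.0854 and 0.270 CPM in the libraries where they had reads, Myl4 and Gja5 reach at most 3.11 and 10.8 CPM, and Nppa lies between 248 and 802 CPM.

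Myl7, the atrial regulatory light chain, gave 10, 0, 5 and 4 reads in the libraries labelled Atf3+/+FS6KD and 5, 2, 15 and 29 reads in those labelled Atf3-/-FS6KD. As CPM these are 0.236, 0, 0.0421 and 0.0296 CPM against 0.142, 0.0540, 0.133 and 0.234 CPM, and the groups overlapped over nearly their whole range. Means were 0.0769 ± 0.107 CPM and 0.141 ± 0.0735 CPM (SD, n = 4 each; exact permutation test, two-sided, p = 0.343). Without Atf3+/+FS6KD replicate 1 the first mean was 0.0239 CPM. Among the AAV libraries Myl7 gave 16, 2 and 1 reads under the shCtrl label (0.395, 0.0508 and 0.0262 CPM) and 4, 2 and 2 reads under the shAtf3 label (0.116, 0.0638 and 0.0665 CPM). A single library, labelled shCtrl replicate 1, held the highest level of the series, and its counting interval (0.226 to 0.641 CPM) lay above those of the other 2 libraries of its group. The mean of that group was 0.157 CPM with this library and 0.0385 CPM without it. The exact permutation test gave p = 1.0 for the AAV groups.

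Sln, which encodes sarcolipin, had the fewest reads of the 5 genes. It gave 3, 0, 4 and 0 reads in the libraries labelled Atf3+/+FS6KD and 3, 1, 1 and 4 reads in those labelled Atf3-/-FS6KD (exact permutation p = 0.571). Among the AAV libraries it gave 3, 1 and 2 reads under the shCtrl label and 0 reads in all 3 labelled shAtf3. On raw CPM these groups did not overlap, and the exact permutation p of 0.1 is the smallest that 3 libraries against 3 allow. Groups did not overlap for 18.4% of all genes tested in that experiment. That share was taken after TMM scaling and without Sln, which fell under the filter, so it is not a like measure. A count of 0 allows up to 0.0872, 0.0957 and 0.0997 CPM under the shAtf3 label (3 reads each), while those labelled shCtrl lay at 0.0740, 0.0254 and 0.0524 CPM. Summed over each group, the level was 0.0508 CPM under the shCtrl label (95% exact Poisson interval 0.0187 to 0.111) and 0 under the shAtf3 label (upper bound 0.0385), and these intervals overlapped.

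Bmp10, the atrial ligand, gave 2, 0, 17 and 33 reads in the libraries labelled Atf3+/+FS6KD and 2, 10, 11 and 12 reads in those labelled Atf3-/-FS6KD. The levels were 0.0472, 0, 0.143 and 0.245 CPM against 0.0569, 0.270, 0.0974 and 0.0967 CPM, with means of 0.109 ± 0.108 and 0.130 ± 0.0950 CPM (SD, n = 4 each; exact permutation p = 0.743). The first mean was 0.0635 CPM without Atf3+/+FS6KD replicate 4, and the second 0.0837 CPM without Atf3-/-FS6KD replicate 2. In the AAV hearts it gave 10, 4 and 3 reads under the shCtrl label and 3, 7 and 3 under the shAtf3 label (exact permutation p = 0.80). The libraries that were highest for Bmp10 in the knockout experiment, Atf3-/-FS6KD replicate 2 and Atf3+/+FS6KD replicate 4, were not those that were highest for Myl7. Among the 6 AAV libraries, by contrast, the one labelled shCtrl replicate 1 was the highest for Myl7, Sln, Bmp10 (0.247 CPM) and Gja5. Its lead was 3 reads against 2 for Sln and 10 reads against 7 for Bmp10. After Benjamini-Hochberg adjustment over the 6 exact permutation tests of Myl7, Sln and Bmp10 the adjusted p was 0.60 for Sln in the AAV experiment and 0.96 to 1.0 for the others.

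Myl4, the atrial essential light chain, is the first of the 2 members that could be fitted with all other genes. It lay at 2.33, 2.15, 2.60 and 2.27 CPM in the libraries labelled Atf3+/+FS6KD and at 2.27, 2.47, 3.11 and 2.69 CPM in those labelled Atf3-/-FS6KD, with overlapping groups. Its log2 fold change was 0.12 (SE 0.13, 95% interval -0.18 to 0.41, edgeR quasi-likelihood test, Benjamini-Hochberg adjusted p = 0.784). In the AAV hearts Myl4 lay at 2.58, 2.96 and 2.37 CPM under the shCtrl label and at 2.43, 1.64 and 1.96 CPM under the shAtf3 label. There 2 of the 3 libraries labelled shAtf3 lay below every library labelled shCtrl, and the log2 fold change was -0.33 (SE 0.18, interval -0.74 to 0.08, edgeR adjusted p = 0.484). The difference between both experiments, tested as an interaction over all 14 libraries, was 0.45 on the log2 scale (SE 0.21, edgeR adjusted p = 0.309), and that of Gja5 was 0.14 (SE 0.17, edgeR adjusted p = 0.720), where 0.166% of all genes were called. With the AAV labels exchanged the difference was -0.21 for Myl4 and 0.047 for Gja5 (edgeR adjusted p = 1.0 for both).

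Gja5, the connexin, lay at 8.89, 9.14, 8.58 and 9.18 CPM in the libraries labelled Atf3+/+FS6KD and at 9.19, 10.3, 9.55 and 10.8 CPM in those labelled Atf3-/-FS6KD. On raw CPM every library labelled Atf3-/-FS6KD lay above every library labelled Atf3+/+FS6KD, by as little as 9.19 against 9.18 CPM, whereas the groups overlapped after TMM scaling. On that scale 5.71% of all genes tested had groups that did not overlap, and neither Myl4 nor Gja5 was among them. The fitted log2 fold change was 0.10 (SE 0.08, interval -0.09 to 0.28, edgeR adjusted p = 0.711). In the AAV hearts Gja5 lay at 9.70, 7.85 and 7.37 CPM under the shCtrl label and at 6.22, 8.74 and 8.44 CPM under the shAtf3 label, with a log2 fold change of -0.05 (SE 0.15, interval -0.39 to 0.28, edgeR adjusted p = 0.920). The sign in the AAV experiment turned to 0.066 without the library labelled shCtrl replicate 1 and to 0.086 without the one labelled shAtf3 replicate 1.

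Neither Myl4 nor Gja5 passed the test in either experiment. Over all genes tested the edgeR fit called 0% of 15592 in the knockout experiment, where 1575 genes had an unadjusted p below 0.05 and DESeq2 called 208, and 0.539% of 15225 in the AAV experiment. Within the shallow knockout libraries (replicates 1 and 2) the log2 fold change of Myl4 was 0.023 and that of Gja5 0.051, and within the deep ones (replicates 3 and 4) 0.19 and 0.14, with edgeR adjusted p between 0.789 and 0.991.

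Set beside their ventricular counterparts, the atrial genes made up a very small share. Reads were divided by the length of the merged exons before genes were compared. Per kilobase, Myl7 reached at most 0.00859% of Myl2, with a median of 0.00135% over the 14 libraries. Where Myl7 had 3 reads or more, Myl2 was 11643 to 136904 times higher. In the library at 0, Myl2 was at least 54825 times higher (3 reads allowed). Libraries with 1 or 2 reads of Myl7 are not covered by these values. Myl4 reached 0.0244% to 0.0473% of Myl3, and Sln at most 0.00266% of Pln in the libraries with reads of Sln. Gja5 stood at 0.690% to 1.29% of Gja1, which was taken here as a further heart connexin and not as a ventricular marker. These are ratios of transcripts and not shares of tissue, since no pure atrial library was analysed here.

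The order of the 5 genes per exon kilobase was Myl4 (median 2.0 CPM per kilobase), Gja5 (1.58), Myl7 (0.110), Bmp10 (0.0220) and Sln (0.0199). The ranges of Myl4 (1.37 to 2.59) and Gja5 (1.09 to 1.89) overlapped, as did those of Bmp10 (0 to 0.0601) and Sln (0 to 0.0648). These ranges alone do not settle the order within either pair, which was not compared library by library. Myl7 (0 to 0.669) lay below the lowest value of Gja5 in every library, and its range overlapped those of Bmp10 and Sln. Nppa, without its copy, lay at 287 to 928 CPM per kilobase.

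**Figure D2:**
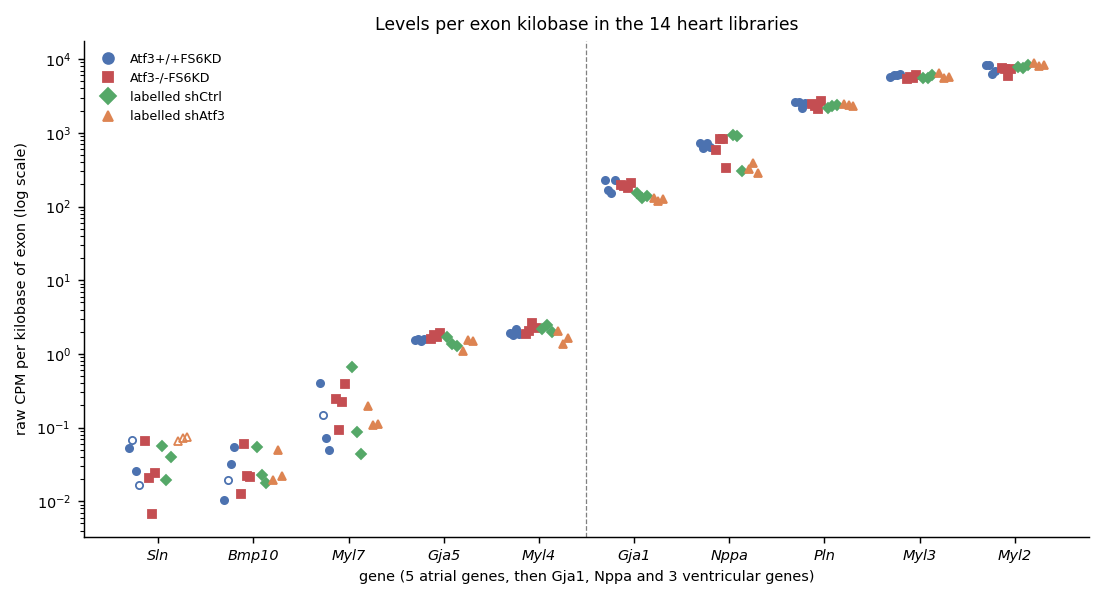
Raw CPM per kilobase of merged exon (log scale) in the 14 heart libraries for the 5 atrial genes (left of the dashed line) and for Gja1, Nppa, Pln, Myl3 and Myl2 (right). Open marks are libraries with 0 reads, drawn at the level of 3 reads. Every atrial gene lies below 3 CPM per kilobase and Gja1, the lowest of the genes on the right, has a median of 159.

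Nppa, read beside the atrial genes, lay at 623, 541, 637 and 554 CPM in the libraries labelled Atf3+/+FS6KD and at 506, 709, 724 and 286 CPM in those labelled Atf3-/-FS6KD. The 2 knockout libraries highest in Myl7, Atf3+/+FS6KD replicate 1 and Atf3-/-FS6KD replicate 4, held 623 and 286 CPM of Nppa, the latter the lowest of the experiment. In the library without a read of Myl7, Sln or Bmp10, Atf3+/+FS6KD replicate 2, Nppa stood at 541 CPM. With its copy added, Nppa exceeded Myl7 per exon kilobase by 1678 to 24315 times in the libraries with reads of Myl7.

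Over the 8 knockout libraries the log2 CPM of Nppa was correlated with that of each atrial gene, and no relation passed the test. Pearson's r was -0.36 with Myl7, -0.022 with Myl4, -0.14 with Sln, 0.12 with Bmp10 and -0.69 with Gja5, with exact permutation p of 0.397, 0.967, 0.762, 0.746 and 0.0757. Spearman's rho was -0.14, 0.45, -0.18, 0.33 and -0.31 in the same order, with exact permutation p of 0.752, 0.268, 0.672, 0.428 and 0.462. Without the 2 libraries farthest from the median of Gja5, its r was -0.40 (exact permutation p = 0.438), and it turned to 0.12 without Atf3-/-FS6KD replicate 4 alone. For Myl4, r was 0.68 without the 2 farthest libraries (exact permutation p = 0.121). The corresponding r was -0.68 for Myl7 (exact permutation p = 0.0986), -0.17 for Sln (exact permutation p = 0.718) and 0.056 for Bmp10 (exact permutation p = 0.936). Centred within the shallow and the deep libraries, r was 0.22 for Myl4 (exact permutation p = 0.578). Myl7, Sln and Bmp10 enter these relations with 0 to 33 reads a library, so their r carries large counting error. Nppb, a second natriuretic peptide added for comparison after the data were seen, gave r = 0.64 with Nppa (exact permutation p = 0.0573) and rho = 0.81 (exact permutation p = 0.0218). Adjusted over these 6 relations, every Pearson p was at least 0.227 and every Spearman p at least 0.131.

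In the AAV hearts Nppa lay at 802, 785 and 263 CPM under the shCtrl label and at 279, 335 and 248 CPM under the shAtf3 label. These 6 values form 2 separate clusters, of 2 and of 4 libraries, so no correlation is given. The library with the most Nppa (802 CPM), labelled shCtrl replicate 1, was also the highest of the 6 for Myl7, Sln, Bmp10 and Gja5, and the second highest for Myl4. For Sln that rank rests on 3 reads against 2 in the next library, and for Bmp10 on 10 reads against 7. The 2 libraries high in Nppa, labelled shCtrl replicates 1 and 2, differed in Myl7 (16 and 2 reads), in Bmp10 (10 and 4 reads) and in Gja5 (9.70 and 7.85 CPM), and both were higher in Myl4 (2.58 and 2.96 CPM) than the other 4 libraries (1.64 to 2.43 CPM). The log2 fold change of Nppa was -1.06 (SE 0.34, interval -1.83 to -0.29, edgeR unadjusted p = 0.0122, adjusted p = 0.247). With the mean log2 CPM of the 5 atrial genes as a covariate it was -0.72 (edgeR adjusted p = 0.401), and in the knockout experiment it went from -0.15 (edgeR adjusted p = 0.861) to -0.13 (edgeR adjusted p = 0.937). That covariate gives the 3 genes with few reads the same weight as Myl4 and Gja5.

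**Figure D3:**
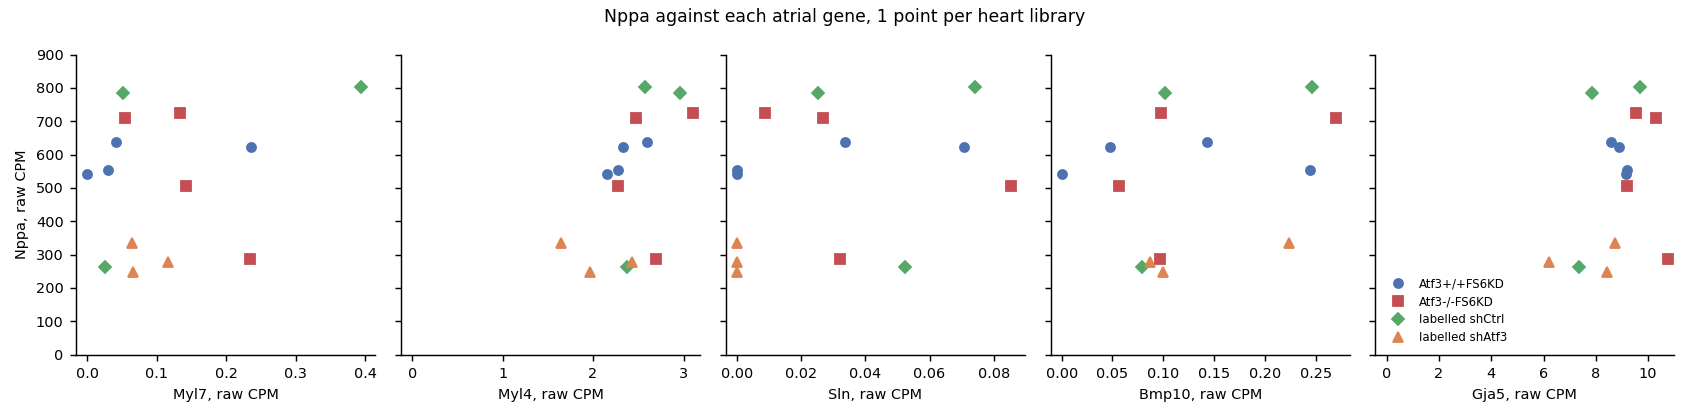
Raw CPM of Nppa (vertical axis) against raw CPM of each atrial gene (horizontal axis, own scale per gene), 1 point per heart library, coloured by group. The 2 libraries at 802 and 785 CPM of Nppa are labelled shCtrl, and in the panel of Myl7 they stand at 0.395 and 0.0508 CPM.

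The wider list of 14 genes that are richer in atria than in ventricles held 12 genes that passed the filter in both experiments, and many of its genes are also made by ventricular or vascular cells. Mybphl, a myosin-binding protein of atrial muscle, stayed between 0.0569 and 0.321 CPM. Among the 12 tested genes Sbk2, a kinase gene, lay at 0.944 to 4.06 CPM and Pam, which encodes the enzyme that amidates peptides, at 987 to 1381 CPM. In the knockout experiment none of the 12 was called, and their median log2 fold change was -0.06, beside 0.00054 over all genes tested. In the AAV experiment 1 of the 12 was called, where 0.539% of all genes were, and 4 of the 12 had groups that did not overlap, where 18.4% of all genes had, with a median of 0.02 beside -0.0029 over all genes.

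The gene called was Dkk3, a secreted protein related to Wnt antagonists. It lay at 20.0, 26.0 and 16.1 CPM under the shCtrl label and at 9.63, 10.2 and 9.07 CPM under the shAtf3 label, and the groups did not overlap. Dkk3 fell by 1.06 on the log2 scale (SE 0.16, edgeR adjusted p = 0.0299). The call was lost without any 1 of 5 of the 6 libraries, all but the one labelled shCtrl replicate 3 (edgeR adjusted p 0.0509 to 0.179), while the log2 fold change in these 5 fits stayed between -1.10 and -0.87. In the knockout experiment Dkk3 had a log2 fold change of 0.41 (edgeR adjusted p = 0.618), which was 0.24 without Atf3-/-FS6KD replicate 2 and 0.62 without Atf3+/+FS6KD replicate 3, and the difference between the experiments was 1.47 (edgeR adjusted p = 0.0877). With the AAV labels exchanged that difference was -0.65 (edgeR adjusted p = 1.0). Kcnj3, a subunit of the atrial acetylcholine-gated potassium channel, had log2 fold changes of -0.38 in the knockout and 0.44 in the AAV experiment (edgeR adjusted p = 0.436 and 0.229). Sbk2 had -0.67 and 0.56 (edgeR adjusted p = 0.568 and 0.225). The 95% intervals of Nppa, Dkk3, Kcnj3, Sbk2 and Cacna1d in the AAV experiment lay off 0, as did those of Kcnj3 and Kcnj5 in the knockout experiment, but of these only Dkk3 passed the adjusted threshold. With no filter Kcnj3 (log2 fold change 0.45, edgeR adjusted p = 0.0399) and Nppa (-1.05, edgeR adjusted p = 0.0238) passed it in the AAV experiment as well.

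**Figure D4:**
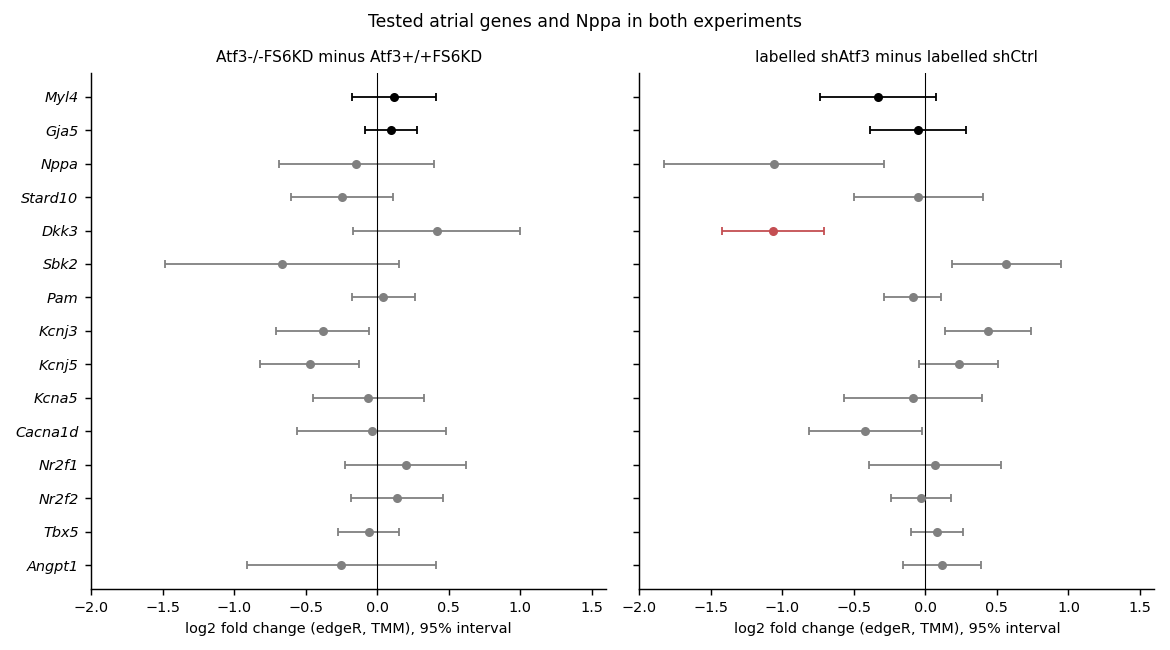
Log2 fold change (edgeR, TMM scaling) with its 95% interval for Myl4 and Gja5 (black), Nppa and the 12 tested genes of the wider atrial list (grey) in both experiments, with the gene called at an adjusted p below 0.05 in red. Myl4 and Gja5 have intervals across 0 in both panels, and Dkk3 at -1.06 in the AAV experiment is the one red point.

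The families and pathways around the 5 genes were read in the same way, and none of their genes was called in either experiment with the filter. Of 10 myosin light chains 9 were tested, with Myl7 as the one left out. The smallest p in this list were those of Myl9, a smooth muscle light chain, in the knockout experiment (log2 fold change -1.01, edgeR adjusted p = 0.389) and of Myl1, a skeletal muscle light chain, in the AAV experiment (-1.37, edgeR adjusted p = 0.243). Myl1 lay at 4.70, 5.03 and 3.88 CPM under the shCtrl label and at 3.32, 0.952 and 0.777 CPM under the shAtf3 label, without overlap, and it was called when no filter was applied (edgeR adjusted p = 0.0299). Myl2, the ventricular regulatory light chain, had log2 fold changes of -0.15 in the knockout and 0.13 in the AAV experiment (edgeR adjusted p = 0.687 and 0.398). Of 7 calcium pumps and small pump regulators, Sln and Mrln, which encodes myoregulin, never reached 1 CPM, and the pump gene Atp2a1 passed the filter in the knockout experiment only. Pln had log2 fold changes of -0.11 and 0.09 (edgeR adjusted p = 0.715 and 0.558). Among 5 heart connexins, Gjc1 had a log2 fold change of -0.26 in the AAV experiment (edgeR adjusted p = 0.233).

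Bmp10 signals from the blood to endothelial cells through the receptor Acvrl1 and its co-receptor endoglin (Eng). Of 15 genes of this pathway, the 2 ligands were the ones never above 1 CPM: Bmp10 and Gdf2, which encodes the liver-made ligand BMP9 and stayed at or below 0.0319 CPM. Acvrl1 lay at 32.3 to 46.4 CPM over the knockout and 35.5 to 43.6 CPM over the AAV libraries, and Eng at 141 to 200 and 128 to 162 CPM. The smallest p in the list was that of Id2, a target of BMP signalling, with a log2 fold change of 0.49 in the knockout experiment (edgeR adjusted p = 0.368). Id2 had -0.28 in the AAV experiment, where its groups did not overlap (edgeR adjusted p = 0.328), and the difference between the experiments was 0.76 (edgeR adjusted p = 0.0896), or 0.21 with the AAV labels exchanged (edgeR adjusted p = 1.0). The median over the 13 genes tested was 0.08 in the knockout and -0.01 in the AAV experiment.

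Genes of the other cell types that make Gja5 were present. The summed level of 8 arterial endothelial genes was 123 to 151 CPM in the libraries labelled Atf3+/+FS6KD, 131 to 163 CPM in those labelled Atf3-/-FS6KD, 125 to 136 CPM in those labelled shCtrl and 116 to 128 CPM under the shAtf3 label. That of 7 conduction system genes was 34.9 to 49.1, 26.3 to 47.0, 22.4 to 29.4 and 23.3 to 30.1 CPM in the same order. None of either list was called, and Gja4, the arterial connexin, had a log2 fold change of 0.15 in the knockout and -0.32 in the AAV experiment (edgeR adjusted p = 0.743 and 0.214). The part of these cells in the level of Gja5 was not tested. Genes of other tissues differed in level: 5 lung epithelial genes summed to 0.0204 to 0.298 CPM and 5 adipocyte genes to 0.197 to 2.01 CPM over the 14 libraries. The sum of 6 mesothelial genes was 3.2 to 9.22 CPM, of which Wt1 gave 2.57 to 7.02 CPM, and that of 5 erythroid genes 147 to 463 CPM. None of these genes was called. The mesothelial gene Msln, with the smallest p of its list in the AAV experiment (edgeR adjusted p = 0.347), gave 0, 2 and 8 reads under the shCtrl label and 6, 51 and 4 under the shAtf3 label, so that 1 library held most of its reads.

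The genes whose pattern was most like that of the 5 atrial genes were ranked by the smaller of 2 Pearson correlations, over the 8 knockout and over the 6 AAV libraries, with the mean log2 CPM of the 5. Among 12521 genes the first 10 were Mical1, Arhgap24, Cdkn1a, Fbxo40, Wdr75, 4930562F07Rik, Ninl, Stxbp3, Ica1 and Cers6, with a smaller r of 0.92 for Mical1 down to 0.86 for Cers6. None of the other atrial genes was among them. The mean of the 5 gives Myl7, Sln and Bmp10, with few reads, the same weight as Myl4 and Gja5. These 10 are the top of a ranking of many genes over few libraries, and whether any of them marks atrial tissue was not tested.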

How the data were processed

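RNA from 14 female FS6KD hearts had been made into stranded mRNA libraries. Per the submitters' processing notes, the authors counted reads with featureCounts 2.0.0 on GRCm38.p6. The knockout libraries were single-end reads, and the aligner is not given in the sources used here. The deposited tables hold an estimated count per gene and library without normalization, and 19.3% to 24.4% of the values of a library are not whole. They were rounded before every test. The design had assumed whole counts, and the same tests were kept. Of 42396 rows, 2379 carry a gene symbol with an added number and were read as alternate-locus copies. All sample columns were used (0 left out). Whether counting used strand is not stated.

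Genes above 1 CPM in at least 1 library were tested per experiment with edgeR 4.0.16 in R 4.3.3 with TMM scaling and its quasi-likelihood test, and a gene was called at a Benjamini-Hochberg adjusted p below 0.05, a procedure tested on simulated data. The study itself used a test per gene on normalized CPM. DESeq2 1.42.0 was an alternative. Genes under the filter were compared by exact permutation tests of mean raw CPM (scipy), added after their counts were seen. Poisson intervals at 95% cover counting error only, those of log2 fold changes come from the edgeR fit, and a count of 0 allows 3 reads. Correlations used log2 CPM with a prior count of 2 over the knockout libraries, and the planned ones over the AAV libraries are not given. Named genes were the 5 members, Nppa, Atf3, Ndufs6, up to 3 genes per list with the smallest p, any past the threshold, and the 10 most alike. Myl2, Myl3, Pln, Gja1, Nppb, Atp2a1, Gjc1, Gja4, Acvrl1, Eng, Gdf2, Mrln, Mybphl, Pam and Sbk2 were added by role or for having the extreme level of a list. 1 gene of the wider atrial list is not reported here. The members and lists were chosen with earlier results of these data known.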

Additional observations from a re-analysis of the deposited data

Results flagged for a closer look

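Among 20 genes (the 5 atrial genes, Nppa and the 14 of the wider list), 1 had every library of the Atf3-/-FS6KD group on one side of its control mean and every library labelled shAtf3 on the other side. The share of all genes with this pattern was not determined, so 1 of 20 has no background beside it. The gene was Kcnj5, a further subunit of the acetylcholine-gated potassium channel. It averaged 101.7 CPM in the libraries labelled Atf3-/-FS6KD, and all 4 lay below the mean of those labelled Atf3+/+FS6KD (135.3 CPM). All 3 libraries labelled shAtf3 lay above the mean of those labelled shCtrl (121.8 against 106.7 CPM). The log2 fold changes were -0.47 and 0.23, and their difference, tested as an interaction in edgeR, was -0.71 (SE 0.23, adjusted p = 0.146). Dkk3 (1.47), Sbk2 (-1.24) and Kcnj3 (-0.82) also had log2 fold changes of opposite sign, with larger differences, each with 1 Atf3-/-FS6KD library across the control mean, and none passed the adjusted threshold. With the AAV labels exchanged, Kcnj5 was lower in both experiments, and the difference was -0.24 (edgeR adjusted p = 1.0). In 12 checks of the 5 atrial genes and Nppa within the knockout groups, no library's gap to its nearest neighbour, divided by the range of the group, exceeded Dixon's critical value of 0.829, and Myl7 in Atf3+/+FS6KD replicate 1 came close at 0.821.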

How the results depend on the processing

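Myl4 and Gja5 stayed uncalled under every alternative tried, with log2 fold changes of 0.023 to 0.19 and 0.046 to 0.16 in the knockout experiment and -0.50 to -0.19 and -0.13 to 0.086 in the AAV experiment (Gja5 turned to 0.066 without shCtrl replicate 1 and to 0.086 without shAtf3 replicate 1). With 1 library left out, Nppa ranged from -0.29 to 0.065 in the knockout experiment, the latter without Atf3-/-FS6KD replicate 4 (-0.0024 within replicates 1 and 2 and -0.31 within replicates 3 and 4), and from -1.42 to -0.83 in the AAV experiment. There it passed the threshold with no filter (-1.05, edgeR adjusted p = 0.0238) and without the library labelled shCtrl replicate 3 (-1.42, edgeR adjusted p = 0.00057). Without a filter, the log2 fold changes of Myl7 were 1.12 and -0.86 (edgeR adjusted p = 0.693 and 0.788), and Kcnj3 and Myl1 were called in the AAV experiment.

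The number of genes called varied widely. In the knockout experiment (0) it was 2 with no filter, 208 by DESeq2, 31 with all 14 libraries in 1 fit, 8 within replicates 3 and 4, and 0 to 15 with 1 library left out. In the AAV experiment (82) it was 304 with no filter, 308 by DESeq2, 1 with all 14 libraries and 1 to 285 with 1 library left out. With the replicate block it was 20, and the log2 fold changes of Myl4 and Gja5 were 0.11 and 0.09 in the knockout and -0.34 and -0.06 in the AAV experiment, uncalled. The numbers do not pair the libraries: same-numbered libraries deviated from their group means with r of 0.027 to 0.18 and -0.035 to 0.17, and not every library matched its own number best. For the difference between experiments (26) it was 205 with library size alone and 61 with no filter. With the AAV labels exchanged it was 0 by edgeR (651 genes at an unadjusted p below 0.05), and the difference was -0.21 for Myl4, -1.20 for Nppa and -0.65 for Dkk3, which by construction turns the sign of the AAV part. The cause of the other shifts was not tested. Dkk3 in the AAV experiment lost its call with all 14 libraries in 1 fit (-1.06, edgeR adjusted p = 0.356).

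The correlation of Nppa with Myl4 (-0.022) turned to 0.065 with library size alone, 0.10 centred on groups, 0.22 centred on depth batches and 0.68 without the 2 farthest libraries. With 1 library left out, r ranged from -0.42 to 0.72 for Myl4, from -0.90 to 0.12 for Gja5 (exact permutation p = 0.0312 at -0.90, without Atf3-/-FS6KD replicate 2), from -0.51 to 0.16 for Myl7, from -0.26 (without Atf3+/+FS6KD replicate 1) to -0.057 (without Atf3-/-FS6KD replicate 3) for Sln and from -0.026 to 0.39 for Bmp10. For Nppb, r with Nppa lay between 0.59 and 0.92 over all settings tried (unadjusted exact permutation p of 0.0122 to 0.234).

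The depth leaves Myl7, Sln and Bmp10 at 0 to 33 reads in a library, and their intervals are wide.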

Other observations

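The second row of Nppa, read as an alternate-locus copy, held 46.3% to 47.5% of the reads of both rows in 11 of the 14 libraries. In the libraries labelled Atf3-/-FS6KD replicates 1, 2 and 4 it held 50.8%, 50.7% and 50.3%. For Nppb, the neighbouring gene on chromosome 4, the copy held 44.6%, 44.8% and 43.1% in these 3 libraries and 31.2% to 32.3% in the other 11. With the copy added, Nppa lay at 1028, 1436, 1370 and 575 CPM in the libraries labelled Atf3-/-FS6KD and at 1174, 1018, 1210 and 1057 CPM in those labelled Atf3+/+FS6KD, and its log2 fold change was -0.08 in place of -0.15. None of the 5 atrial genes has such a row.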
